A study of Homo sapiens with 4 samples.

Results

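The core circadian clock genes were examined in SK-MEL-28, an established human melanoma cell line, as the 10 gene symbols ARNTL, CLOCK, PER1, PER2, PER3, CRY1, CRY2, NR1D1, NR1D2 and DBP. They are named members of the clock, given by symbol with no threshold on a measured value, and all 10 were found among the 25268 symbols of the RNA-Seq table. The cells had been infected with the lentiviral vector pTRIPZ, either empty (vector cells) or carrying the MYC gene under a Tet-inducible promoter (MYC-inducible cells, called MYC cells below). Both kinds of cell had been selected with geneticin for 4 days and left for 24 h before treatment, and whether either was a clone or a pool of infected cells is not given in the sources used here. Untreated cultures and cultures kept for 54 h in 0.5 μg/ml doxycycline (Dox) were sequenced, which gives 4 libraries, 1 per condition. There are thus no replicates and no p-values, and with 1 culture per condition a difference between cultures cannot be told apart from an effect of the treatment. Being bulk samples, they do not separate fewer cells of a type from less RNA per cell. The hour of harvest and any synchronisation of the cultures are not given in the sources used here.

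The circadian clock is a feedback loop of transcription that most cells carry. CLOCK and ARNTL (also called BMAL1) form a pair of basic helix-loop-helix proteins that binds E-box sequences and drives transcription of the PER, CRY, NR1D and DBP genes. PER and CRY proteins return to the nucleus and repress that pair, and the nuclear receptors REV-ERBα and REV-ERBβ, encoded by NR1D1 and NR1D2, repress ARNTL. DBP is an output factor that binds D-box sequences in other clock genes, PER genes among them. MYC with its partner MAX also binds the E-box sequence CACGTG.

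The sequences below show where such letters lie in front of the clock genes. RefSeq gives 15 promoter windows for the 10 genes on GRCh38.p14 (ARNTL as BMAL1), each from 250 bases before to 50 bases after a transcription start, with 2 windows for ARNTL, CLOCK, PER3, CRY2 and NR1D2. The expression table was made on hg19, so these GRCh38 positions are used for the sequences only. Motifs of 4 kinds were searched on both strands, and none of the matches in the clock genes overlapped another. The first was the E-box CACGTG, which reads the same on either strand. The next was a variant E-box with the letters CACGTT. The D-box was searched as TTATGTAA and with a single changed letter as TTATGCAA. The element that REV-ERB and ROR receptors bind was searched as TAGGTCA and, with a changed second letter, as TGGGTCA. The PER1 and NR1D2 stretches are shown because they hold the intact E-box, and the shorter ones because they hold the variant E-box or, for PER3, a D-box. All are written 5′ to 3′ on the strand of the gene, with every motif in capitals.
PER1, chr17:8152425-8152584, minus strand: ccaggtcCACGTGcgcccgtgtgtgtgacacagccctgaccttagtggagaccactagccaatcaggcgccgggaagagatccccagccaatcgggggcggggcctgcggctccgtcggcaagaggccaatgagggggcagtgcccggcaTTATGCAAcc
NR1D2, chr3:23945921-23946025, plus strand: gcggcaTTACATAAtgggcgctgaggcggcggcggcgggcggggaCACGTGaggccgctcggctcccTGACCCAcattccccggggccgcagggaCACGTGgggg
CLOCK, chr4:55546096-55546137, minus strand: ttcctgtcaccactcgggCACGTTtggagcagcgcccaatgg
PER2, chr2:238288784-238288825, minus strand: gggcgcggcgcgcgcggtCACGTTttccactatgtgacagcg
CRY1, chr12:107093615-107093656, minus strand: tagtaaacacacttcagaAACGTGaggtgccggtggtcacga
CRY2, chr11:45847269-45847310, plus strand: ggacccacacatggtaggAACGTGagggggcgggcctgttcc
NR1D1, chr17:40100734-40100775, minus strand: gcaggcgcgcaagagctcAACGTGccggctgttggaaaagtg
PER3, chr1:7784096-7784139, plus strand: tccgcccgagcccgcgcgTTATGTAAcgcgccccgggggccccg

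The E-box CACGTG stood 173 bases before the start of PER1, and 155 and 105 bases before the second annotated start of NR1D2. These are 2 of the 15 windows, and 7.26% of all 35116 RefSeq windows hold this E-box. The variant E-box was found in 5 of the 15 windows, those of PER2, CRY1, CRY2, NR1D1 and CLOCK, against 5.34% of all windows. The D-box was found in 3 of the 15, in PER1, PER3 and NR1D2, where 1.71% of all windows have it. The REV-ERB and ROR element was found in 4 of the 15, in ARNTL, CLOCK, CRY2 and NR1D2, against 5.69% of all windows. The ARNTL match lay 31 bases into the transcript. DBP had no match in its single window. Over all tested genes, the 1109 with the E-box CACGTG in a window had a median log2 change with Dox of 0.02 in MYC cells and 0.02 in vector cells, and the 7273 with a window and no such E-box had medians of -0.03 and 0.01.

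Expression values are FPKM, fragment numbers scaled by transcript length and library size, as the authors deposited them, so levels of different genes are compared per length. The table holds no counts. Depth was estimated from the steps between very low values and came to approximately 34900000 to 41900000 fragments per library. With annotated transcript lengths this gives an approximate number of fragments for each gene and from it a 95% counting interval, which holds only the chance of sampling fragments, with no allowance for variation among cultures. Changes are differences of log2(FPKM + 0.1), which understates changes of low genes, and "rose" and "fell" are used below only for changes of at least 1.5-fold on that scale. MYC had 58.3 FPKM in untreated vector cells, 54.8 FPKM with Dox, 76.5 FPKM in untreated MYC cells and 87.1 FPKM with Dox, a log2 change with Dox of 0.19 in MYC cells and -0.09 in vector cells. All 7 melanocyte markers examined were present, from 14.2 FPKM for TYRP1 to 6227 FPKM for PMEL. All 7 were lower with Dox in MYC cells and 4 of them fell, where 8.85% of all tested genes fell. In vector cells only 2 of the 7 were higher with Dox and 0 fell, with log2 changes from -0.35 for TYRP1 to 0.05 for MITF. Their median log2 change was -0.70 in MYC cells and -0.08 in vector cells. KRT5 was listed at 0 in all 4 libraries, PTPRC and PECAM1 did not exceed 0.00984 FPKM, and EPCAM went from 0.726 to 2.71 FPKM with Dox in MYC cells. The part of this shift in the clock gene values was not tested.

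The clock genes were expressed at low to moderate levels, with mean values over the 4 libraries from 0.481 FPKM for PER2 to 6.15 FPKM for CRY1. CRY1 was followed by DBP at 5.93, CRY2 at 5.08, PER3 at 4.85, NR1D1 at 4.53, NR1D2 at 4.44, ARNTL at 2.59, PER1 at 2.55 and CLOCK at 1.84 FPKM. Neighbours in this order, from CRY1 to NR1D2 and again ARNTL and PER1, had ranges over the 4 libraries that overlapped. CLOCK, at 1.81 to 1.86 FPKM, overlapped the range of PER1 and lay below that of ARNTL, and PER2 lay below all others. Of the 11147 genes averaging 1 FPKM or more, 38.2% had a lower mean than CRY1 and 10.2% a lower mean than CLOCK. PER2 was the only clock gene under that limit, and counts and medians below that refer to the 9 clock genes above it leave PER2 out. Each of the 9 exceeded 1 FPKM in every library.

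**Figure D1:**
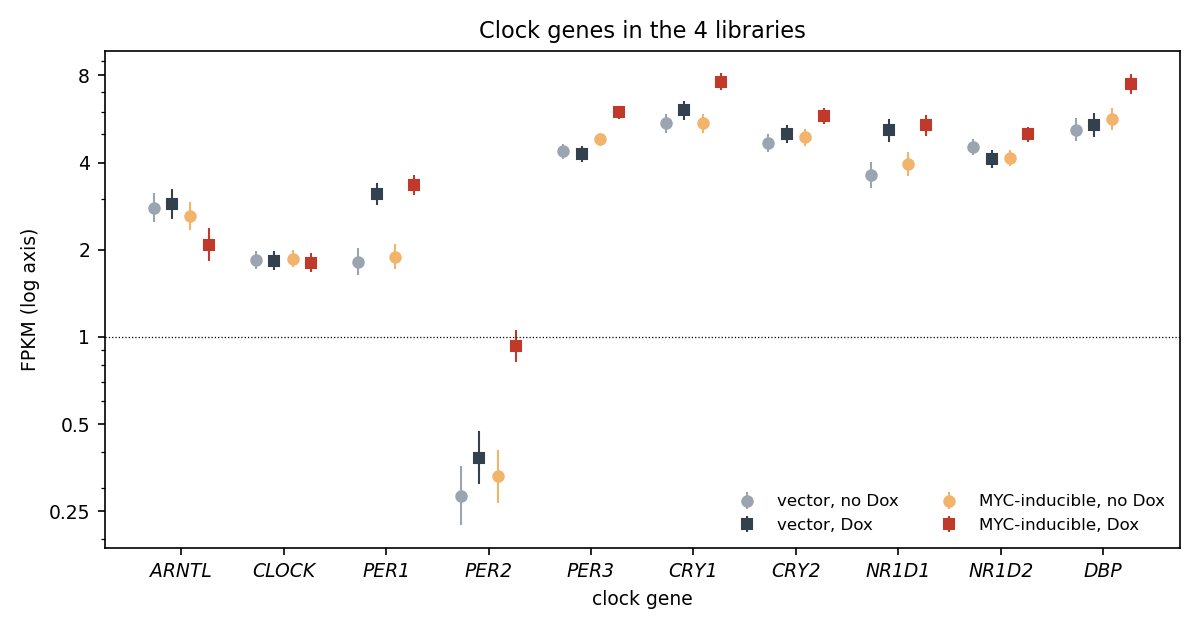
FPKM (log axis) of the 10 clock genes in the 4 libraries, 1 point per library with its approximate 95% counting interval, and a dotted line at 1 FPKM. PER1 and NR1D1 are higher in both Dox libraries, PER2 stands at 0.929 FPKM in MYC cells with Dox against at most 0.383 FPKM elsewhere, and CLOCK is level.

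The comparison with and without Dox in MYC cells asks how clock transcripts differ when MYC is induced, and the same comparison in vector cells gives the change with Dox alone. In these libraries MYC itself differed by only 1.14-fold with Dox in MYC cells, where 26.7% of all tested genes were raised by as much. Untreated MYC cells already had 1.31 times the MYC level of untreated vector cells, and with Dox MYC cells had 1.59 times that of vector cells. The paper reports higher MYC mRNA by RT-PCR and higher E-box reporter activity with Dox in MYC-inducible cells. All 8 genes that the CLOCK and ARNTL pair drives (PER1, PER2, PER3, CRY1, CRY2, NR1D1, NR1D2 and DBP) had their highest value in MYC cells with Dox, the library in which 40.2% of all tested genes were highest. PER1 and NR1D1 exceeded their values in vector cells with Dox by log2 differences of only 0.10 and 0.06, within counting error. ARNTL and CLOCK had their lowest values in MYC cells with Dox, where 42.9% of all tested genes were lowest. CLOCK did not move beyond counting error. PER1 rose in both kinds of cell to a similar degree and NR1D1 was higher with Dox in both. PER2, PER3, CRY1, NR1D2 and DBP had a more positive change in MYC cells than in vector cells, where NR1D2 was slightly lower with Dox. Of the 9 clock genes above 1 FPKM, 1 rose and 0 fell in MYC cells, where 5.9% of all tested genes rose and 8.85% fell. In vector cells 1 rose and 0 fell, with 0.709% of all genes rising and 0.44% falling. The gene was PER1 in both cases. The change was positive for 7 of the 9 in MYC cells, against 46.8% of all genes, and for 6 of the 9 in vector cells, against 54.2% of all genes. The median log2 change of the 9 was 0.30 in MYC cells and 0.05 in vector cells, beside medians of -0.03 and 0.01 over all tested genes. The corresponding means of the 9 were 0.28 and 0.16. The median of the difference of the changes, MYC minus vector cells, taken gene by gene, was 0.13 for the 9 and -0.04 for all tested genes.

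**Figure D2:**
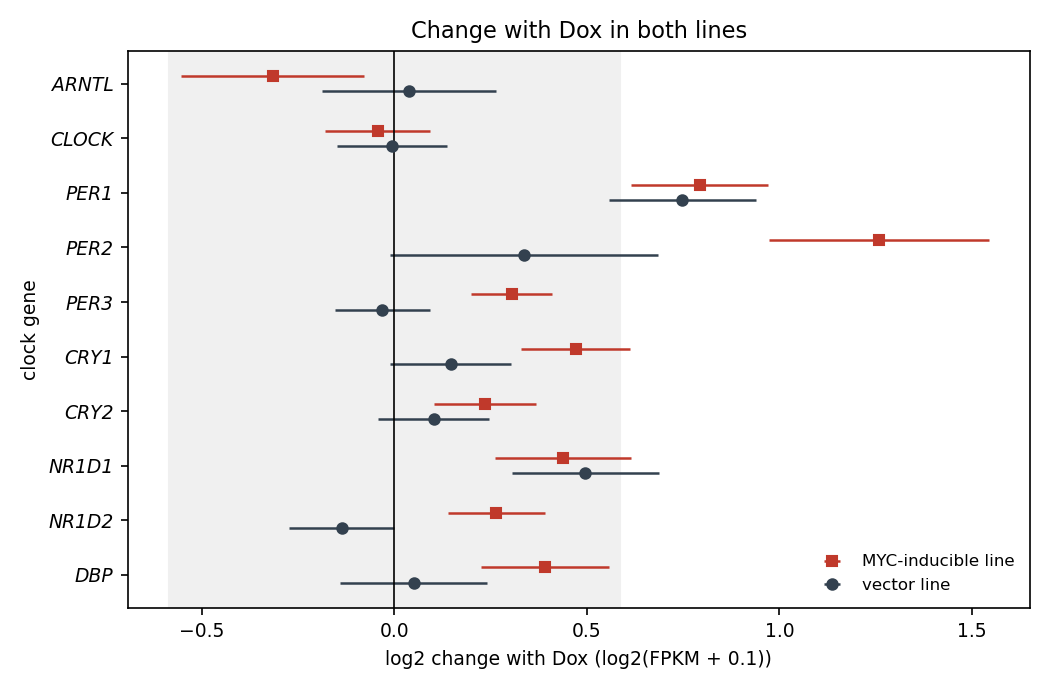
Change with Dox, on the log2(FPKM + 0.1) scale, of the 10 clock genes in MYC cells (squares) and vector cells (circles), with approximate 95% counting intervals and changes under 1.5-fold shaded. PER1 lies to the right of the shaded band in both kinds of cell, PER2 only in MYC cells, and ARNTL is the only gene of the 10 whose interval in MYC cells lies below 0.

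The activators were level or lower with Dox in MYC cells. ARNTL, which oscillates in most tissues and binds E-boxes together with CLOCK, lies on chromosome 11 of GRCh37 from 13298199 to 13408813. It had 2.80 FPKM in untreated vector cells, 2.87 FPKM with Dox, 2.61 FPKM in untreated MYC cells and 2.08 FPKM with Dox. The last library was the lowest, and the other 3 lay close together. The log2 change was -0.32 in MYC cells (counting interval -0.55 to -0.08), and 21.9% of all tested genes were lowered by as much or more there. In vector cells the log2 change was 0.04 (-0.19 to 0.26), and the difference of the changes, MYC minus vector cells, was -0.35 (-0.68 to -0.03). CLOCK, the partner of ARNTL, on chromosome 4 from 56294070 to 56413076, had 1.84 and 1.83 FPKM in vector cells and 1.86 and 1.81 FPKM in MYC cells, untreated and with Dox. Its log2 changes of -0.01 and -0.04 lay inside their counting intervals, and the change in MYC cells was 0.00 when libraries were scaled by the median ratio. In the annotation 76 bases of the CLOCK transcript are shared with TMEM165 on the opposite strand.

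PER1, a repressor that is also an early responder to hormones and cAMP signals, was the clock gene that differed most with Dox alone. It lies on chromosome 17 from 8043790 to 8059824. Its values were 1.82 FPKM without Dox and 3.12 FPKM with Dox in vector cells, and 1.89 FPKM and 3.36 FPKM in MYC cells. Both Dox libraries were thus above both untreated libraries. The log2 change was 0.75 in vector cells (0.56 to 0.94), where 0.422% of all tested genes were raised by as much, and 0.79 in MYC cells (0.62 to 0.97), where 2.35% were. The difference of the changes was 0.05 (-0.21 to 0.31). PER1 was among 21 genes, 0.188% of those tested, that rose in both kinds of cell. With a pseudocount of 1 its log2 change was 0.55 in vector cells, just under 1.5-fold, and 0.59 in MYC cells. In the annotation its transcript shares 30 bases with another gene on the same strand.

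PER2, the PER family member with the lowest level, lies on chromosome 2 from 239152685 to 239198743. It had 0.283 FPKM in untreated vector cells, 0.383 FPKM with Dox, 0.330 FPKM in untreated MYC cells and 0.929 FPKM with Dox. These values rest on approximately 70.2, 85.3, 88.2 and 232 fragments. The library of MYC cells with Dox stood apart from the other 3, at 2.81 times its untreated counterpart. The log2 change was 1.26 there (0.97 to 1.54), the largest of the 10 clock genes, and 0.34 in vector cells (-0.01 to 0.68). The difference of the changes was 0.92 (0.47 to 1.37), and 1.47% of all tested genes had a difference as large. Because PER2 is low, the pseudocount matters: the change in MYC cells was 0.54 with a pseudocount of 1.

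PER3, on chromosome 1 from 7844351 to 7905237, was the most abundant of the 3 PER transcripts, with 4.37 and 4.28 FPKM in vector cells and 4.80 and 5.96 FPKM in MYC cells, untreated and with Dox. Its log2 change was 0.30 in MYC cells (0.20 to 0.41) and -0.03 in vector cells (-0.15 to 0.09), a difference of 0.34 (0.17 to 0.50). It was the only clock gene whose untreated levels differed between vector and MYC cells beyond counting error, by 0.13 (0.02 to 0.25). UTS2 on the opposite strand shares 868 bases with the PER3 transcript and was listed at 0 in 3 of the libraries, with 0.136 FPKM in vector cells with Dox. Long non-coding RNAs on the opposite strand share 376 bases with PER3, 188 with PER2 and 94 with CRY1. Within the PER family, the share of PER3 in the summed FPKM went from 67.5% to 54.9% with Dox in vector cells and from 68.4% to 58.2% in MYC cells. PER1 took up most of this in vector cells, from 28.1% to 40.1%. In MYC cells PER1 went from 26.9% to 32.8% and PER2 from 4.70% to 9.07%. The summed PER level went from 6.47 to 7.78 FPKM in vector cells and from 7.03 to 10.2 FPKM in MYC cells.

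The cryptochromes, which bind PER proteins and are the main repressors of the CLOCK and ARNTL pair, were both higher with Dox in MYC cells, by under 1.5-fold. CRY1, on chromosome 12 from 107385142 to 107487327, had 5.46 FPKM in both untreated libraries, 6.05 FPKM in vector cells with Dox and 7.61 FPKM in MYC cells with Dox. Its log2 change was 0.47 (0.33 to 0.61) in MYC cells and 0.15 (-0.01 to 0.30) in vector cells, a difference of 0.33 (0.11 to 0.54). CRY2, on chromosome 11 from 45868669 to 45904799, had 4.66 and 5.02 FPKM in vector cells and 4.89 and 5.77 FPKM in MYC cells, untreated and with Dox. The change of CRY2 was smaller, at 0.24 (0.10 to 0.37) in MYC cells and 0.10 (-0.04 to 0.25) in vector cells, and its difference of the changes of 0.13 (-0.06 to 0.33) was within counting error. CRY1 made up 52.8% to 56.9% of the summed cryptochrome FPKM in the 4 libraries.

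The REV-ERB receptors did not move alike. NR1D1, on chromosome 17 from 38249046 to 38256842, had 3.63 and 5.16 FPKM in vector cells and 3.95 and 5.38 FPKM in MYC cells, untreated and with Dox, so that both Dox libraries were again above both untreated ones. Its log2 change was 0.50 in vector cells (0.30 to 0.69), where 0.987% of all tested genes were raised by as much, and 0.44 in MYC cells (0.26 to 0.61), where 10.9% were. The difference of the changes was -0.06 (-0.32 to 0.20). NR1D1 shares 473 bases of its transcript with THRA on the opposite strand, and it is not given in the sources used here whether the strand of the reads was used. THRA had 2.20 to 2.44 FPKM, with log2 changes of 0.07 in vector cells and 0.13 in MYC cells.
NR1D2, on chromosome 3 from 23986777 to 24022108, had 4.52 FPKM in untreated vector cells, 4.10 FPKM with Dox, 4.15 FPKM in untreated MYC cells and 5.003 FPKM with Dox. It was slightly lower with Dox in vector cells, at a log2 change of -0.14, with a counting interval from -0.27 to just under 0, and higher in MYC cells, at 0.26 (0.14 to 0.39). The difference of 0.40 (0.22 to 0.59) was the largest among the 9 clock genes above 1 FPKM. The ratio of NR1D2 to NR1D1 went from 1.24 to 0.795 with Dox in vector cells and from 1.05 to 0.930 in MYC cells.

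DBP, the D-box output factor, lies on chromosome 19 from 49133287 to 49140636. It had 5.20 and 5.38 FPKM in vector cells and 5.66 and 7.46 FPKM in MYC cells, untreated and with Dox. MYC cells with Dox were above the other 3 libraries. Its log2 change was 0.39 (0.23 to 0.56) in MYC cells and 0.05 (-0.14 to 0.24) in vector cells, a difference of 0.34 (0.09 to 0.59). SPHK2, which shares 661 bases with DBP on the opposite strand, had at most 10.6 FPKM, with log2 changes of 0.06 and 0.02 in vector and MYC cells.

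**Figure D3:**
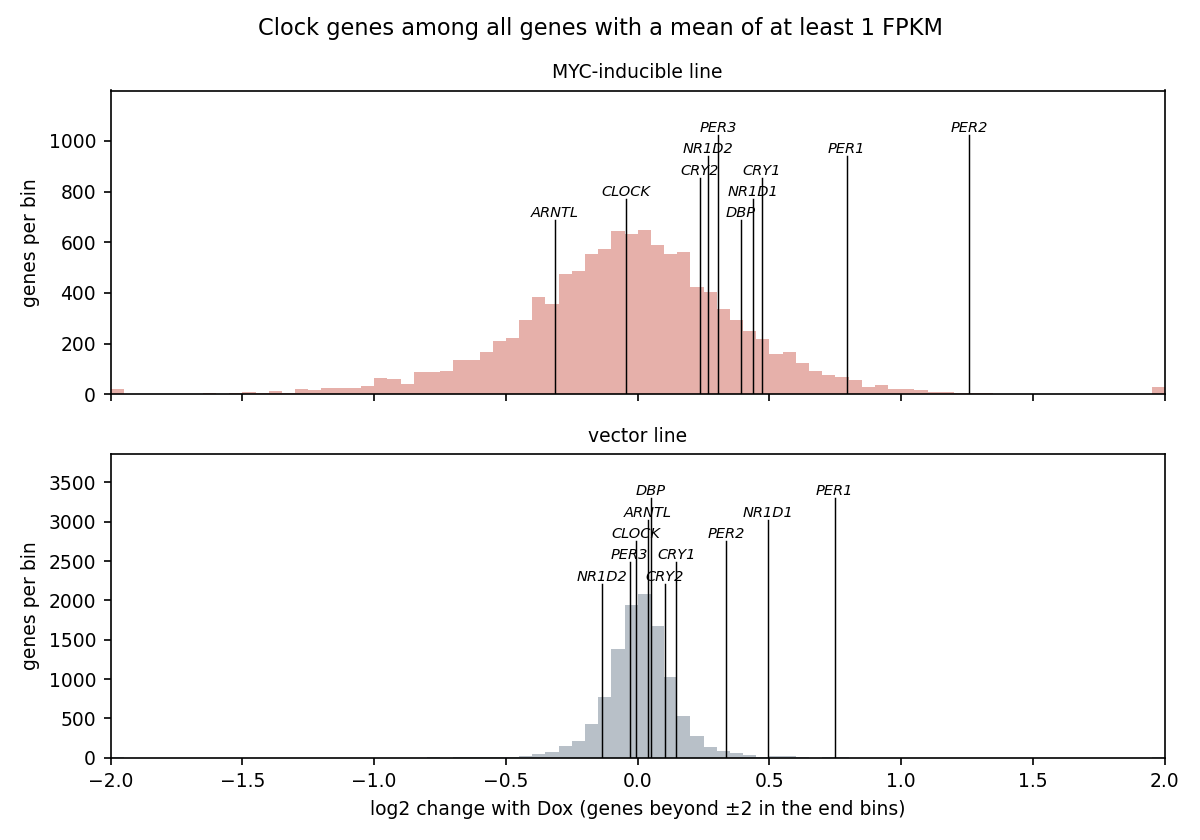
Histograms of the log2 change with Dox over the 11147 genes averaging 1 FPKM or more, in MYC cells (top) and vector cells (bottom), in bins of 0.05, with the 10 clock genes marked by lines. The spread of all genes is wider in MYC cells, with 90% of genes between -0.75 and 0.62 against -0.20 and 0.22 in vector cells, where PER1 at 0.75 and NR1D1 at 0.50 lie outside it. PER2, marked too, is below 1 FPKM and not counted in the bars.

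How unusual a change was depended on the cells. The central 90% of genes lay between -0.75 and 0.62 in MYC cells and between -0.20 and 0.22 in vector cells. Of the 9 clock genes above 1 FPKM, PER1 was outside this range in MYC cells and the other 8 lay within it. In vector cells PER1 and NR1D1 were outside and the other 7 within, as the histograms of all genes show.

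With Dox in both kinds of cell, MYC cells were compared with vector cells. None of the 9 clock genes above 1 FPKM differed by 1.5-fold, while 6.5% of all tested genes were higher and 8.62% lower by that much. PER1 and NR1D1 were nearly level, at log2 differences of 0.10 (-0.06 to 0.26) and 0.06 (-0.11 to 0.23). PER2 was 2.42 times as high in MYC cells, PER3 differed by 0.47, DBP by 0.46, CRY1 by 0.33, NR1D2 by 0.28, CRY2 by 0.20 and ARNTL by -0.45. This comparison shares a library with each of those above. Without Dox, none of the 9 differed by 1.5-fold between vector and MYC cells, against 0.879% of all tested genes that did, and the largest log2 difference was 0.13, for PER3.

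Because ARNTL was lower and its target genes higher with Dox in MYC cells, ratios to ARNTL moved more there than single levels. In vector cells ARNTL was nearly level with Dox, and these ratios moved no more than single levels. The ratio of DBP to ARNTL was 1.86 and 1.87 in vector cells, untreated and with Dox, and 2.17 and 3.59 in MYC cells, a log2 change of 0.71 ± 0.148 (counting error) in the latter. That of NR1D1 to ARNTL went from 1.30 to 1.80 in vector cells and from 1.51 to 2.59 in MYC cells, with log2 changes of 0.46 ± 0.151 and 0.75 ± 0.151. The ratio of CRY1 to ARNTL went from 1.95 to 2.11 and from 2.09 to 3.66 in the same order, and that of PER1 to ARNTL from 0.651 to 1.09 and from 0.725 to 1.61. All of them were highest in MYC cells with Dox, which follows from the levels given above and is no further result. ARNTL was lowest and the other genes highest in that library. In vector cells the DBP and CRY1 ratios differed with Dox by less than their counting error. The PER1 and NR1D1 ratios moved there beyond their counting intervals. The PER2 ratio went from 0.101 to 0.133 in vector cells, a log2 change of 0.30 ± 0.212 that lay inside its counting interval.

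**Figure D4:**
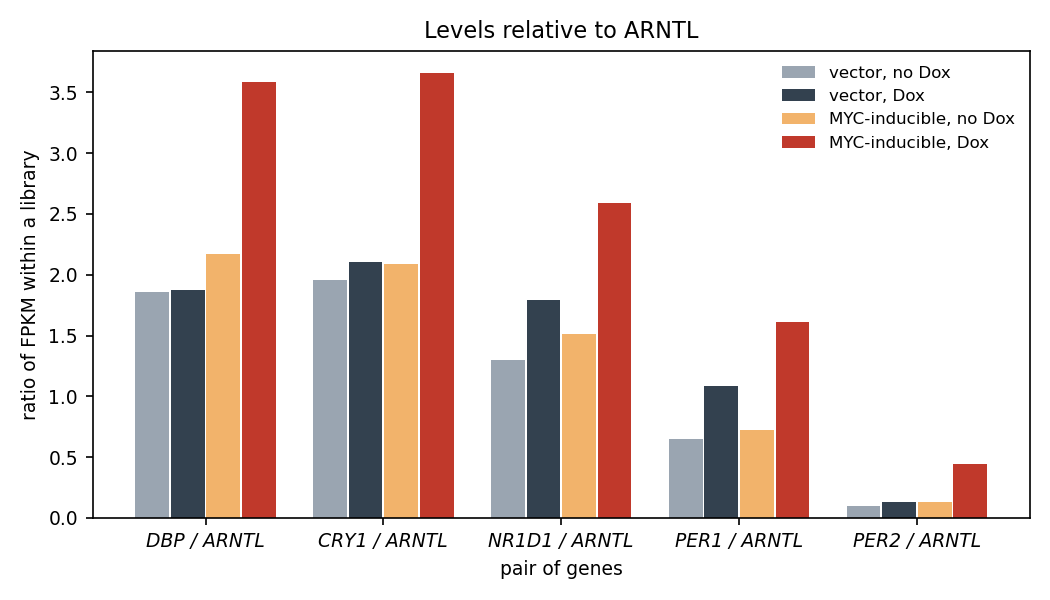
Ratios of the FPKM of DBP, CRY1, NR1D1, PER1 and PER2 to that of ARNTL within each of the 4 libraries, 1 bar per library. The bars of MYC cells with Dox are the tallest of each group, for example 3.59 for DBP. This follows from the levels, as ARNTL was lowest and the other genes highest in that library. The bars of vector cells with Dox are above the untreated ones mainly for NR1D1 and PER1.

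The other genes of the clock network were taken as a list of 33 genes, all present in the table and 26 of them above 1 FPKM. Their median log2 change was -0.01 in MYC cells and 0.03 in vector cells. In MYC cells 2 of the 26 rose and 2 fell, shares near the 5.9% and 8.85% of all tested genes, and in vector cells 0 rose and 0 fell, where 0.709% and 0.44% of all genes did. The 4 genes were CIART, CIPC, BHLHE40 and BHLHE41. CIART, a transcriptional repressor of the clock that is itself rhythmic, went from 2.34 to 5.33 FPKM with Dox in MYC cells, a log2 change of 1.15 (counting error 0.120), and from 2.35 to 2.59 FPKM in vector cells, a change of 0.14. CIPC, which binds CLOCK, went from 2.96 to 4.78 FPKM in MYC cells, a change of 0.67, and from 3.19 to 2.93 FPKM in vector cells. BHLHE40 and BHLHE41, helix-loop-helix repressors that bind E-boxes, both fell. BHLHE40 went from 27.9 to 16.0 FPKM in MYC cells, a log2 change of -0.80, and from 27.7 to 23.0 FPKM in vector cells, a change of -0.27. BHLHE41 went from 33.5 to 21.2 FPKM in MYC cells, a change of -0.66, and was at 31.5 and 32.1 FPKM in vector cells.

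The paralogs of the activators stood at quite different levels. NPAS2, which can replace CLOCK as the partner of ARNTL, had 28.5 and 30.4 FPKM in vector cells and 29.4 and 26.1 FPKM in MYC cells, untreated and with Dox. It was thus 14.4 to 16.6 times as abundant as CLOCK per length. ARNTL2 was below ARNTL, at 0.589 to 0.888 FPKM. Of the receptors that activate ARNTL at the element that REV-ERB proteins also bind, RORA had at most 0.247 FPKM and RORB at most 0.564 FPKM. Among the D-box factors, TEF had 2.65 to 2.88 FPKM, HLF had at most 0.0693 FPKM, and NFIL3, which represses at the D-box, went from 6.29 to 4.76 FPKM with Dox in MYC cells.
None of the 7 kinases and ubiquitin ligases above 1 FPKM changed by 1.5-fold. Their log2 changes in MYC cells went from -0.42 to 0.41, the highest for CSNK1E, a kinase of PER proteins. Only 3 of the 7 were positive, and the median was -0.02. None of the 8 cofactors did so either, from -0.11 for CREBBP to 0.55 for WDR5, nor did the 3 outputs NAMPT, WEE1 and KLF10, at 0.31, -0.12 and -0.45.

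**Figure D5:**
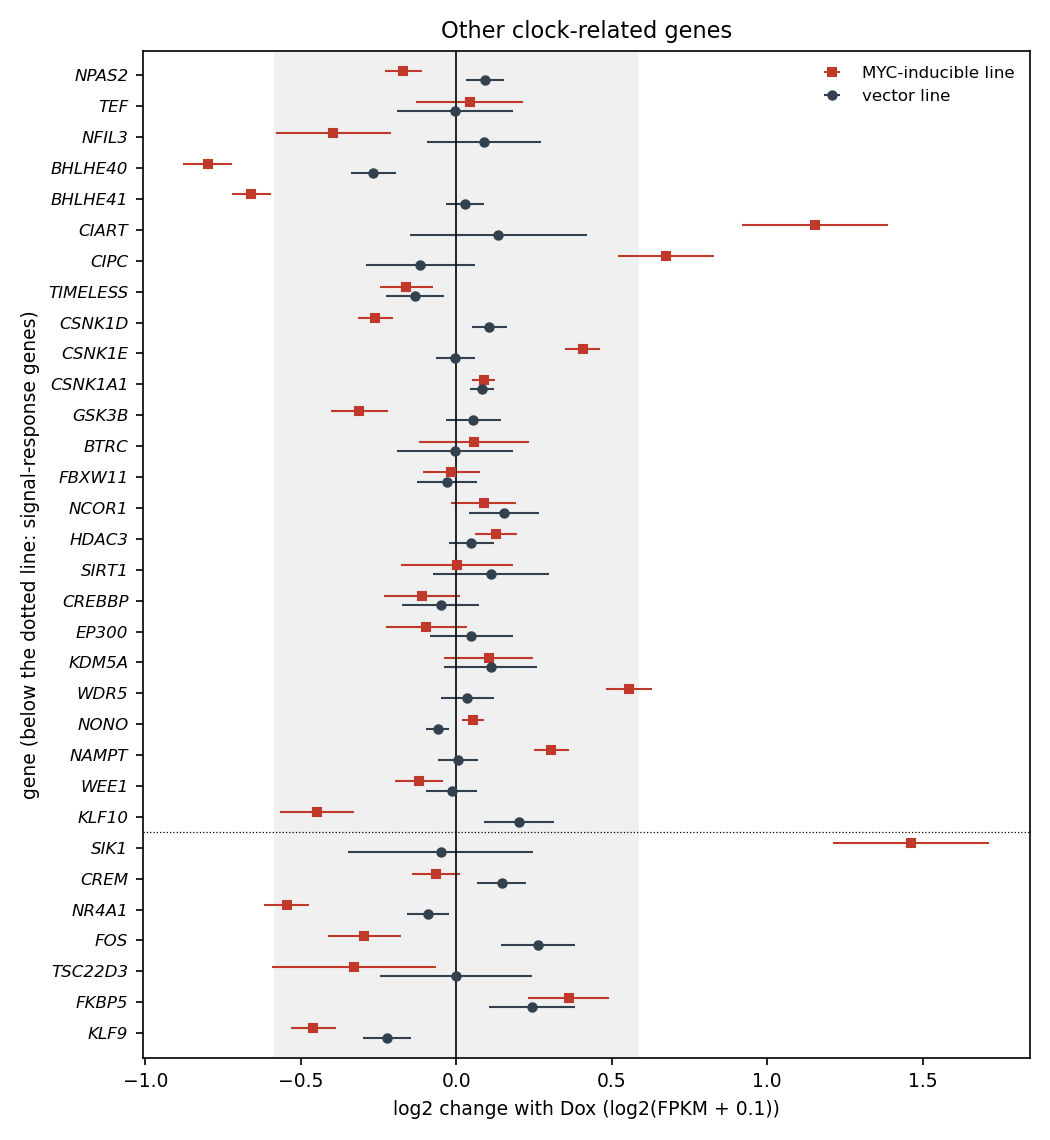
Change with Dox of clock-related genes and, below the dotted line, of 7 signal-response genes, all averaging 1 FPKM or more, in MYC cells (squares) and vector cells (circles), with approximate 95% counting intervals and changes under 1.5-fold shaded. In MYC cells CIART, CIPC and SIK1 lie above the shaded band and BHLHE40 and BHLHE41 below it, and no gene leaves it in vector cells.

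Genes that answer signals known to act on PER1 were counted beside it, since PER1 rose in both kinds of cell. Of the 7 signal-response genes SIK1, CREM, NR4A1, FOS, TSC22D3, FKBP5 and KLF9, 0 rose and 0 fell in vector cells, where 0.709% and 0.44% of all genes did, so this count shows nothing particular to the list. FKBP5, a glucocorticoid-induced gene, was higher with Dox in both kinds of cell, at log2 changes of 0.24 and 0.36, whereas KLF9, another such gene, was lower in both, at -0.22 and -0.46. SIK1, which responds to cAMP and entraining signals, rose in MYC cells from 0.687 to 2.07 FPKM and exceeded 1 FPKM only in that library, while it had 0.838 and 0.806 FPKM in vector cells. The median of the 7 genes was 0.00 in vector cells and -0.30 in MYC cells, and the part of these signals in the PER1 change was not tested.

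The genes whose profile over the 4 libraries was most like that of a clock gene were sought among 7474 genes averaging 5 FPKM or more, by the distance between centred log2 values. For NR1D2, which had the largest positive difference of the changes among the 9 clock genes above 1 FPKM, they were TXNRD3, LOC103021295, PPIA, HDAC10 and MT1X, at distances from 0.0255 to 0.0373. For ARNTL, which had the largest negative one of the 9, they were FAM86DP, DCTN3, VAMP8, LCE2A and STARD10, at distances from 0.0165 to 0.0238. Over 4 libraries such likeness is a description only.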

How the data were processed

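RNA-Seq was done on 4 cultures of SK-MEL-28 cells. Values are FPKM for each gene symbol, as calculated and deposited by the authors. The submitters' processing notes name TopHat2 2.0.14, Cufflinks, hg19 and GRCh37, and the annotation and strand setting are not given in the sources used here. The table has 27032 rows. After 1 nameless row was dropped and repeated symbols (609) were added up, 25268 symbols remained. FPKM cannot enter a count model, and single libraries allow no test. Changes were differences of log2(FPKM + 0.1) over the 11147 genes averaging 1 FPKM or more, and a threshold of 1.5-fold was used as a size. Relative depth came from the commonest ratio between values under 0.05 FPKM, and absolute depth from 206 genes with 1 annotated transcript whose values under 0.2 FPKM were multiples of a step within 1.2%, with quartiles of 33100000 and 40400000 fragments for untreated vector cells. Fragments per gene use the canonical transcript length of GENCODE 44 on GRCh37, and counting intervals are 1.96 counting errors to either side. Named genes were the 10 clock genes, MYC, list members past 1.5-fold in either kind of cell, and the 5 nearest profiles, among genes averaging 5 FPKM or more, of the clock genes with the largest positive and negative differences among those averaging 1 FPKM or more. Other list members and the overlapping genes were named after their values were seen, and some list members are not reported here. The rule for the clock genes uses symbols and no measured value, but the clock was taken up, and the lists were drawn up, with earlier results of these data known. The calculations were tested on simulated data. Alternatives were other pseudocounts, filters, scalings, a 2-fold threshold, the largest row of a symbol, the mean of a list, and Dox-treated vector cells as reference. Calculations used pandas 2.3.3 and numpy 2.4.6 under Python 3.11.15, and figures used matplotlib 3.10.9.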

Additional observations from a re-analysis of the deposited data

Results flagged for a closer look

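NR1D2 went in opposite directions with Dox, by log2 changes of 0.26 in MYC cells and -0.14 in vector cells. With 1 library per condition the difference was not tested. The counting interval of the smaller change ended just under 0.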

How the results depend on the processing

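No paired analysis was possible because single libraries leave nothing to pair. Of 130 recalculated summary values, 116 stayed within their counting interval, or within 1.5 times where they are counts. Of 156 values for single clock genes 149 stayed within their counting interval. Some of these could not move. Each clock gene has a single row in the data, and a filter does not alter the change of a single gene. No clock gene whose change lay outside its counting interval changed direction. With a pseudocount of 1, 0 clock genes rose in vector cells and 1 clock-related gene rose in MYC cells. Without the filter, 2 clock genes (PER1 and PER2) and 4 clock-related genes rose in MYC cells. With a mean of at least 5 FPKM, 0 clock genes rose in either kind of cell, as PER1 is below it, 0 clock-related genes rose and their median in MYC cells was -0.14. At 2-fold, 0 clock genes rose in either kind of cell, 1 clock-related gene rose and 0 fell. Against vector cells with Dox, 0 clock genes rose and 1 clock-related gene fell, and PER1 and NR1D1 differed by 0.10 and 0.06. Depth limits PER2 most, with approximately 70.2 fragments in its lowest library.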
